A study of Mus musculus with 91 samples.

Results

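Angpt1, Angptl4, Vegfa, Vegfb, Vegfc, Pgf, Esm1 and Gas6 are 8 genes for secreted factors that act on blood or lymphatic vessels or on the cells of their wall. They were chosen by name, and all 8 had a row among the 16580 genes of the count table. Their levels were read in 91 single cells of C57BL/6 mouse bone marrow, released by crushing bones and index-sorted as CD45-, Ter119-, CD41-, CD71-, Vibrant Dye+ and VCAM1+ before Smart-seq2, a full-length cDNA protocol for single cells. The VCAM1+CD61+ gate gave 39 cells on 2 plates, the VCAM1+CD61- gate gave 40 cells on 2 other plates, and 9 cells came from a VCAM1+ gate that was not divided by CD61. The remaining 3 cells carry a CD61- title and a CD61+ gate label; they enter only the values given over 91 cells. CD61 is integrin beta 3. The labels give neither the age nor the number of animals, so each gate counts as 1 sample: no p-value is given, plates are not replicate animals, and intervals cover counting error only. Apart from the 3 cells whose labels disagree, no plate carried more than 1 gate, and effects of plate and of gate cannot be told apart.

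Blood vessels form and are kept in shape by secreted signals that endothelial cells read through receptor tyrosine kinases. VEGF-A, VEGF-B, VEGF-C and placental growth factor bind the VEGF receptors encoded by Flt1, Kdr and Flt4, angiopoietin 1 activates TIE2 (Tek) and steadies vessels, and GAS6 activates AXL, MERTK and TYRO3. In the marrow, CXCL12-abundant reticular (CAR) cells, which express Cxcl12, Adipoq and Lepr, lie along sinusoids, and cells of the bone-forming lineage express Alpl, the bone phosphatase, and Spp1, osteopontin. Each factor is therefore set beside Cxcl12, Adipoq, Alpl and Spp1 in the same cell.

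Total counts per cell ran between 507713 and 6702475 with a median of 2060906, and a median of 5499 genes had a count. The median total was 1887613 for the CD61+ gate and 2368345 for the CD61- gate. The median number of genes with a count ran the other way, at 5957 for the CD61+ gate and 5042 for the CD61- gate. Cxcl12 was counted in 83 of the 91 cells, and the endothelial gene Cdh5 in 4, the pan-leukocyte gene Ptprc in 13 and the megakaryocyte gene Itga2b in 12. Counts of at least 3 of 12 endothelial markers were found in 9 cells, of at least 3 of 9 measured hematopoietic markers in 3 cells, and of at least 3 megakaryocyte markers in 0 cells (only 2 of 7 such markers were in the table). The 12 endothelial markers summed to 942 CPM (counts scaled to a total of 1000000, here after summing the cells) in the CD61+ gate, with plates at 131 and 1724, and to 347 CPM in the CD61- gate, with plates at 185 and 566.

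A gene is called higher or lower here when both CD61+ plates lay on the same side of both CD61- plates, as 20.6% of the 14063 tested genes did on the higher side and 17.6% on the lower. In the CD61+ gate 10 of 12 CAR markers were lower and 9 of 12 osteolineage markers higher, with sums of 16207 CPM (CD61+) and 37911 CPM (CD61-) for the CAR markers and 81285 CPM (CD61+) and 19830 CPM (CD61-) for the osteolineage markers. Of 10 fibroblast markers 8 were tested, of which 7 were higher and 0 lower. The 10 together summed to 2720 CPM in the CD61+ gate, with plates at 1433 and 4055, and to 301 CPM in the CD61- gate, with plates at 204 and 373. The part of these marker genes' cells in the differences of the factors was not tested.

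The factors showed 3 patterns. Gas6, Esm1, Vegfc and Angpt1 followed Cxcl12 and Adipoq from cell to cell and had lower sums on each CD61+ plate than on each CD61- plate. Pgf was instead counted more often in CD61+ cells, as Vegfb also was, and was the factor with the highest correlation with Spp1 and Alpl. Angptl4, Vegfa and Vegfb followed none of the 4 stromal genes closely.

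Gas6 and Esm1 had the highest levels per length of transcript. On the scale of summed CPM per kilobase of exon, over the 91 cells, Gas6 reached 448, Esm1 213, Angptl4 128, Vegfc 58.6, Pgf 25.4, Vegfb 10.4, Angpt1 8.55 and Vegfa 8.15. The highest was thus 55.0 times the lowest. Gas6 stood above Esm1 in 4 of 4 CD61-sorted plates and Esm1 above Angptl4 in 3 of 4. Vegfb stood above Angpt1 in 1 of 4 plates, and Angpt1 above Vegfa in 3 of 4, so the plates did not keep these 3 factors in one order. With the mean length of the annotated coding transcripts in place of all exons, Vegfa was at 22.1, Vegfb at 13.7 and Angpt1 at 10.5, and the order of the other 5 factors did not move.

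**Figure D1:**
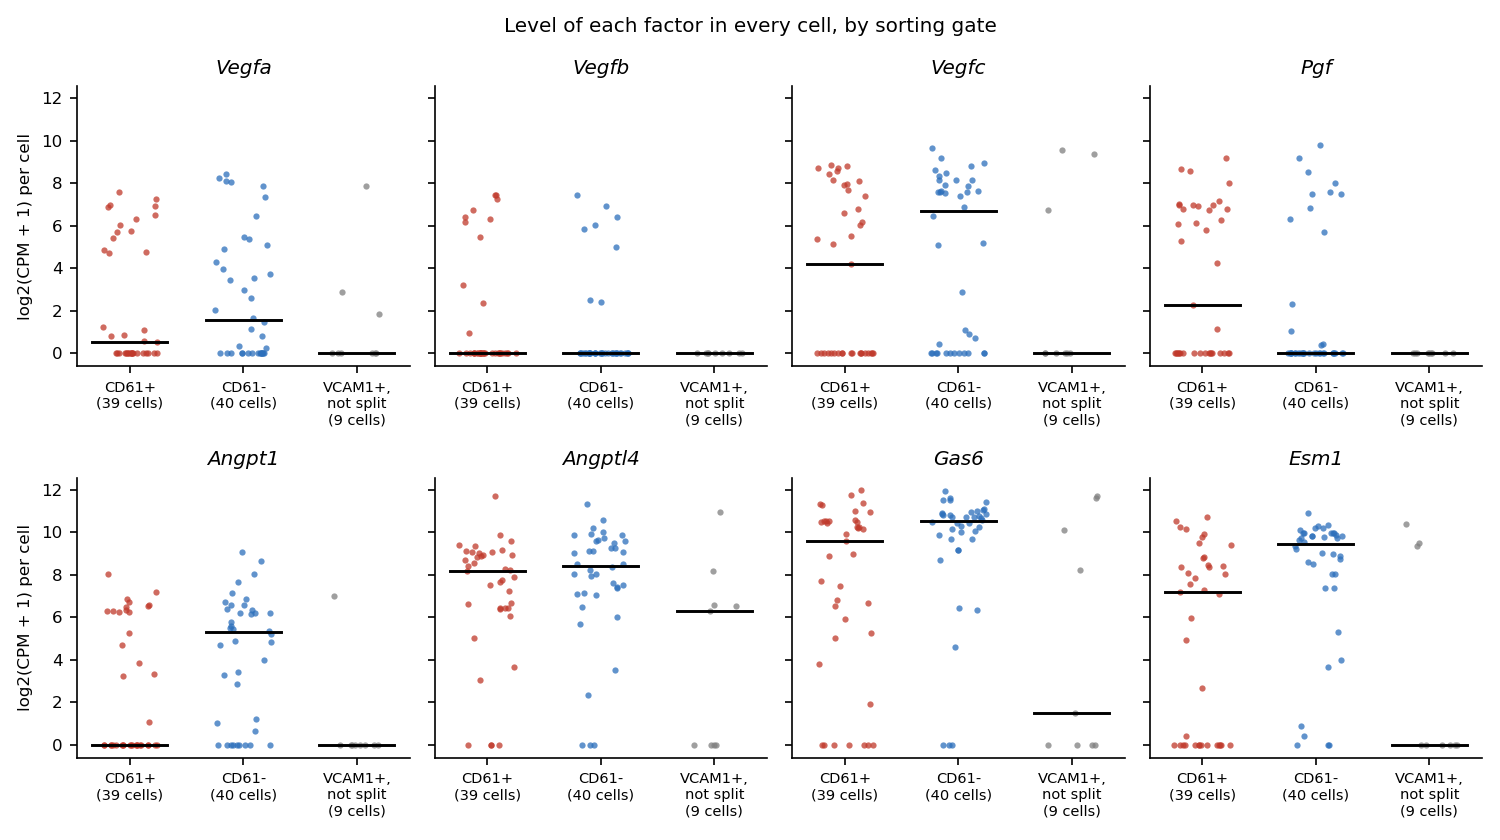
Level of each factor in every cell as log2(CPM + 1), with 1 point per cell and the black line at the gate's median: 39 CD61+ cells, 40 CD61- cells and 9 VCAM1+ cells not split by CD61. Gas6, Esm1, Vegfc and Angpt1 have more cells at 0 in the CD61+ gate than in the CD61- gate, while Pgf has fewer (18 of 39 against 26 of 40).

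Vegfa, the main growth factor of blood vessel endothelium, lies on the minus strand at chr17:46016993-46032369 (GRCm38, GENCODE vM21). Single CD61+ cells held 0 to 191 CPM with a median of 0.437 CPM, and CD61- cells 0 to 351 CPM with a median of 1.96 CPM. It was counted in 20 of 39 CD61+ cells (51.3%, 95% Clopper-Pearson interval 34.8 to 67.6%) and in 25 of 40 CD61- cells (62.5%, 45.8 to 77.3%). Some of these counts were small: 12 of the 49 cells with Vegfa in all had 1 to 3 counts, and 40.7% of the 91 cells reached 4 counts, against 53.8% at 1 count. Summed CPM were 21.4 and 35.6 on the CD61+ plates and 55.6 and 15.3 on the CD61- plates. Both CD61+ plates lay between the CD61- plates.

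Vegfb, whose product binds VEGFR1, was the least often counted factor, in 21 of 91 cells (chr19:6982473-6987651, minus strand). It was found in 11 of 39 cells of the CD61+ gate and in 8 of 40 of the CD61- gate. In the unsplit gate it was found in 0 of 9 cells (Clopper-Pearson interval 0 to 33.6%). The median over cells with a count was 78.5 CPM in CD61+ cells and 61.4 CPM in CD61- cells. Summed CPM were 10.1 and 29.5 on the CD61+ plates and 23.9 and 5.11 on the CD61- plates, which overlap.

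Vegfc, the growth factor of lymphatic endothelium that signals through VEGFR3, was counted in 54 of 91 cells, with a median of 196 CPM in those cells (chr8:54077606-54187096, plus strand). CD61+ cells had 0, 17.6 and 461 CPM as lowest, median and highest value, and CD61- cells 0, 103 and 798 CPM. It was counted in 20 of 39 CD61+ cells and in 28 of 40 CD61- cells. Summed CPM were 117 and 87.7 on the CD61+ plates and 155 and 225 on the CD61- plates, so both CD61+ plates were below both CD61- plates. The gate sums of 103 CPM in CD61+ cells and 185 CPM in CD61- cells differ by -0.85 on the log2 scale (counting interval -0.89 to -0.81).

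Pgf, placental growth factor, had close sums in both gates but was counted in a larger share of CD61+ cells (chr12:85166635-85177790, minus strand). CD61+ cells also had more genes with a count in the median, and whether the share of Pgf goes beyond that was not tested. It was counted in 21 of 39 CD61+ cells (53.8%, interval 37.2 to 69.9%) and in 14 of 40 CD61- cells (35.0%, interval 20.6 to 51.7%). With cells thinned to 1000000 counts the shares were 20 of 33 CD61+ cells (60.6%) and 11 of 37 CD61- cells (29.7%), after leaving out 6 and 3 shallower cells. Cells ranged over 0 to 580 CPM with a median of 3.90 CPM in the CD61+ gate, and over 0 to 881 CPM with a median of 0 CPM in the CD61- gate. In the CD61- gate 3 cells held at least 50% of all Pgf counts, and in the CD61+ gate 4 cells did. The sums were 88.4 CPM for the CD61+ gate, with plates at 108 and 68.1, and 85.9 CPM for the CD61- gate, with plates at 56.1 and 126, and none of the 9 unsplit cells had a count.

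Angpt1, the TIE2 agonist, was counted in 18 of 39 CD61+ cells (46.2%, interval 30.1 to 62.8%) and in 31 of 40 CD61- cells (77.5%, interval 61.5 to 89.2%). The gene lies at chr15:42424723-42676977 on the minus strand. CD61+ cells had 0, 0 and 259 CPM as lowest, median and highest value, and CD61- cells 0, 38 and 534 CPM. Among cells with a count the medians were 77.8 CPM in CD61+ cells and 54.6 CPM in CD61- cells, so the CD61+ gate had fewer cells with a count but no lower median among them. Summed CPM were 35.4 and 20.7 on the CD61+ plates and 88.3 and 41.2 on the CD61- plates, and the log2 ratio of the gates was -1.28 (interval -1.35 to -1.20). Without 1 cell of the lower CD61- plate, which held 257 CPM, that plate summed to 30.1 CPM and the plates overlapped. They also overlapped as mean CPM over cells, at 51.0 and 23.1 on the CD61+ plates and 89.6 and 39.2 on the CD61- plates. The size of the difference rested on single plates, with log2 ratios of -0.55 without CD61- plate 1 and -1.72 without CD61+ plate 1.

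Angptl4, a secreted inhibitor of lipoprotein lipase that also acts on vessel permeability, was the most widely counted factor, in 80 of 91 cells (chr17:33773750-33781830, minus strand). CD61+ cells had 0, 286 and 3382 CPM as lowest, median and highest value, and CD61- cells 0, 343 and 2558 CPM. Its sums were 472 and 386 CPM on the CD61+ plates and 441 and 593 CPM on the CD61- plates, which overlap. A single CD61+ cell, with 3382 CPM, carried 35.4% of that gate's counts. It also had counts of at least 3 endothelial and at least 3 hematopoietic markers. Without this cell its plate summed to 190 CPM, and both CD61+ plates then lay below both CD61- plates.

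Gas6, a vitamin K-dependent ligand of the AXL receptor family, was counted in 32 of 39 CD61+ cells (82.1%) and in 37 of 40 CD61- cells (92.5%). The gene lies at chr8:13465374-13494490 on the minus strand. CD61+ cells ranged over 0 to 4025 CPM with a median of 776 CPM, and CD61- cells over 0 to 3979 CPM with a median of 1472 CPM. Summed CPM were 836 and 1000.1 on the CD61+ plates and 1573 and 1528 on the CD61- plates. The gates do not overlap by plate, and the log2 ratio was -0.76 (interval -0.77 to -0.75). Gas6 overlaps Tmem255b on the other strand, and Smart-seq2 keeps no strand, so reads from the shared stretch cannot be told apart. Esm1 likewise overlaps Gzmk and Angpt1 the antisense gene Gm17473, neither of which had a row in the table.

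Esm1, also called endocan, is a secreted proteoglycan best known from endothelial tip cells; it lies at chr13:113209659-113218098 on the plus strand. Here it was counted in 25 of 39 CD61+ cells (64.1%, interval 47.2 to 78.8%) and in 37 of 40 CD61- cells (92.5%, interval 79.6 to 98.4%). CD61+ cells had 0, 147 and 1709 CPM as lowest, median and highest value, and CD61- cells 0, 702 and 1930 CPM. Summed CPM were 232 and 344 on the CD61+ plates and 776 and 531 on the CD61- plates, a log2 ratio of the gates of -1.23 (interval -1.25 to -1.20). The 4 cells with a count of Cdh5 had no Esm1 count at all, and the 9 cells with at least 3 endothelial markers carried 4.96% of the Esm1 counts over 91 cells.

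Depth differed between the gates, so shares were also read after thinning each cell to 1000000 counts, which left 33 CD61+ cells and 37 CD61- cells. Angpt1 was then counted in 39.4% of CD61+ cells and 75.7% of CD61- cells, and Esm1 in 54.5% of CD61+ cells and 91.9% of CD61- cells. Vegfc was counted in 48.5% of CD61+ cells and 70.3% of CD61- cells, and Gas6 in 78.8% of CD61+ cells and 91.9% of CD61- cells. The order of the gates was the same as without thinning for these 4 factors.

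In the 9 VCAM1+ cells not split by CD61, Gas6 summed to 667 CPM, Angptl4 to 316, Esm1 to 185, Vegfc to 129, Vegfa to 45.4 and Angpt1 to 14.8, with Vegfb and Pgf at 0. Gas6 and Angptl4 were each counted in 5 of these cells, Vegfa, Vegfc and Esm1 in 3 each and Angpt1 in 1. These cells enter no comparison.

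As a list, 4 of the 8 factors had both CD61+ plates below both CD61- plates and 0 of 8 had both above. All 8 passed the filter on low counts (10 counts summed over the plates, and 5 cells with a count). Of all genes tested, 17.6% were lower in this way and 20.6% were higher. The median log2 ratio was -0.60 over the 8 factors and 0.01 over all 14063 genes. Leaving out the 10 cells with at least 3 endothelial or at least 3 hematopoietic markers, 5 factors were lower (the 4 and Angptl4) and 0 higher. The factors are correlated with each other, so these are not 8 separate observations.

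Among cells with a count of Adipoq, no factor separated the plates. Adipoq, the adiponectin gene, was counted in 17 of 39 CD61+ cells and in 36 of 40 CD61- cells. Within these cells 0 of the 8 factors were higher or lower on both plates, and the log2 ratios of CD61+ over CD61- cells were -0.23 for Angpt1, -0.09 for Esm1, 0.09 for Vegfc and 0.20 for Gas6. Gas6 there summed to 1886 CPM in CD61+ cells and 1640 CPM in CD61- cells, and Vegfc to 217 CPM in CD61+ cells and 205 CPM in CD61- cells. Of all genes tested in the same cells, 15.8% were lower and 19.5% were higher in both CD61+ plates. This restriction was chosen after seeing the data.

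**Figure D2:**
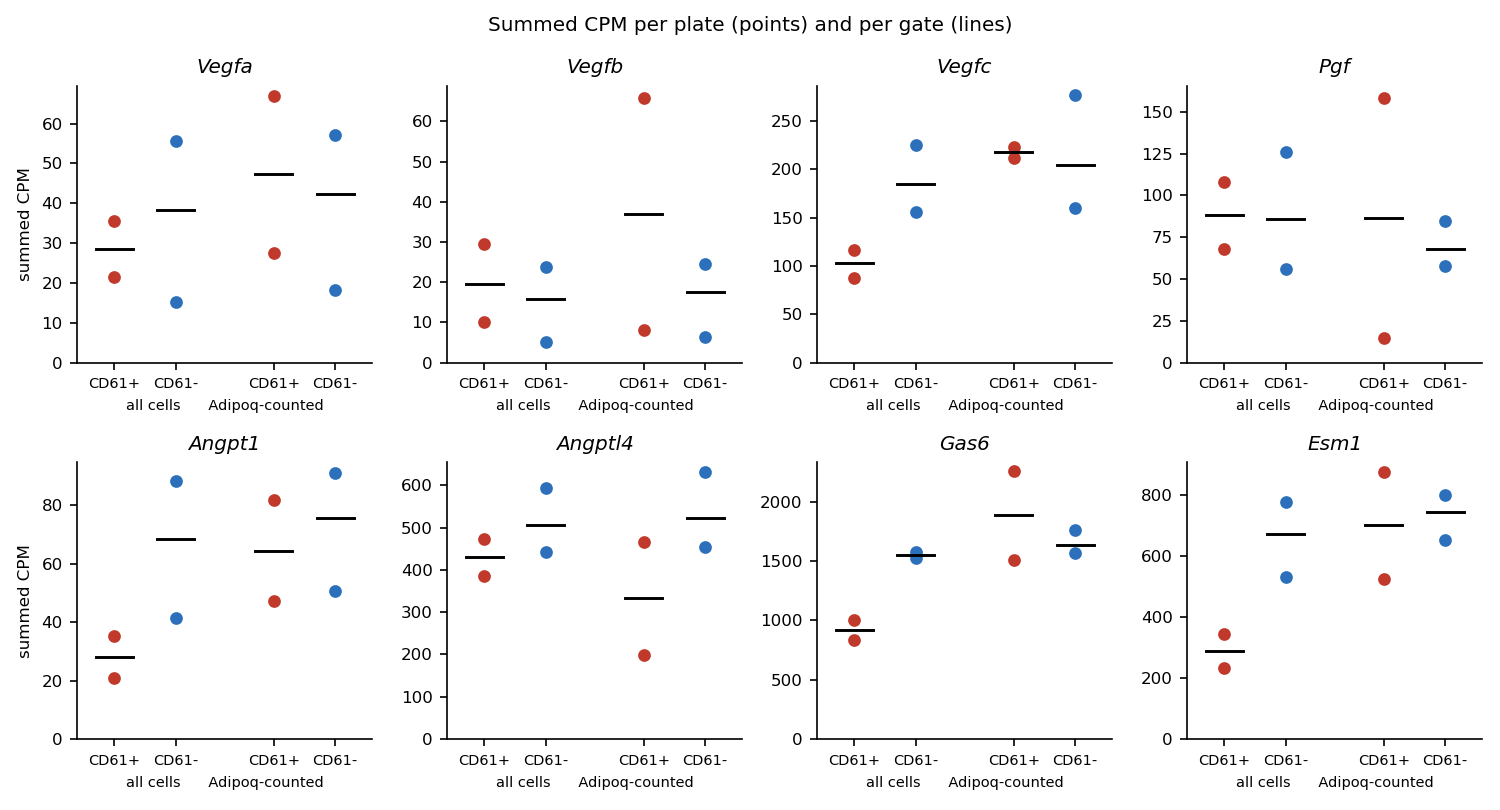
Summed CPM of each factor per plate (points) and per gate (black lines), with all CD61-sorted cells on the left of each panel (39 CD61+ and 40 CD61-) and cells with a count of Adipoq on the right (17 CD61+ and 36 CD61-). Red is CD61+ and blue is CD61-. Vegfc, Angpt1, Gas6 and Esm1 have both red points below both blue points on the left and overlapping points on the right.

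The relation to the reticular genes was next measured cell by cell as Spearman's rho of CPM over the 91 cells. With Cxcl12, the chemokine that holds blood stem cells in the marrow, rho was 0.83 for Gas6, 0.82 for Esm1, 0.63 for Vegfc and 0.52 for Angpt1. Thus 4 of 8 factors reached 0.5, as did 1.36% of 8687 genes counted in at least 25% of cells. Angptl4 had 0.33, Vegfb 0.11, Vegfa 0.10 and Pgf -0.16. Cells share plates and differ in depth, so these values are descriptions; rho with a cell's total count lay between -0.10 (Vegfa) and 0.17 (Angptl4).

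With Adipoq the same 4 factors reached 0.5, against 1.20% of all genes: Esm1 had 0.71, Vegfc 0.60, Gas6 0.57 and Angpt1 0.57. Esm1 was counted in 57 of the 59 cells with Adipoq and in 11 of the 32 cells without it. Vegfc was counted in 48 of 59 and 6 of 32, and Angpt1 in 46 of 59 and 7 of 32 of the same cells. The median Gas6 level was 1434 CPM in the 59 cells with Adipoq and 48.4 CPM in the 32 cells without it. Esm1, Vegfc and Angpt1 each had a median of 0 CPM in the cells without Adipoq. The values were lower inside the CD61- gate, where 3 of the 4 factors were under 0.5. Esm1 had 0.70 in CD61+ cells and 0.55 in CD61- cells, with 0.43 to 0.75 over plates, and Vegfc 0.70 in CD61+ cells and 0.36 in CD61- cells, with 0.18 to 0.77. Gas6 had 0.55 in CD61+ cells and 0.40 in CD61- cells, with 0.18 to 0.63 over plates, and Angpt1 0.57 in CD61+ cells and 0.37 in CD61- cells, with 0.22 to 0.68. Among cells that had a count of the factor, rho with Adipoq was 0.43 for Esm1, 0.44 for Gas6, 0.28 for Angpt1 and 0.06 for Vegfc.

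Within each gate the values for Gas6 and Esm1 were higher than those for Vegfc and Angpt1. Gas6 and Cxcl12 had a rho of 0.87 in CD61+ cells and 0.67 in CD61- cells, with 0.44 to 0.91 over the 4 plates. Esm1 and Cxcl12 had 0.85 in CD61+ cells and 0.64 in CD61- cells, with 0.53 to 0.88 over the plates. For Vegfc the values were 0.62 in CD61+ cells and 0.46 in CD61- cells, with 0.26 to 0.71 over plates. For Angpt1 they were 0.66 in CD61+ cells and 0.24 in CD61- cells, with 0.04 to 0.67 over plates. Among cells that had a count of the factor, rho with Cxcl12 was 0.75 for Gas6 and 0.63 for Esm1 but 0.15 for Vegfc and 0.22 for Angpt1. The 54 cells with Vegfc and the 53 with Angpt1 all had a count of Cxcl12.

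**Figure D3:**
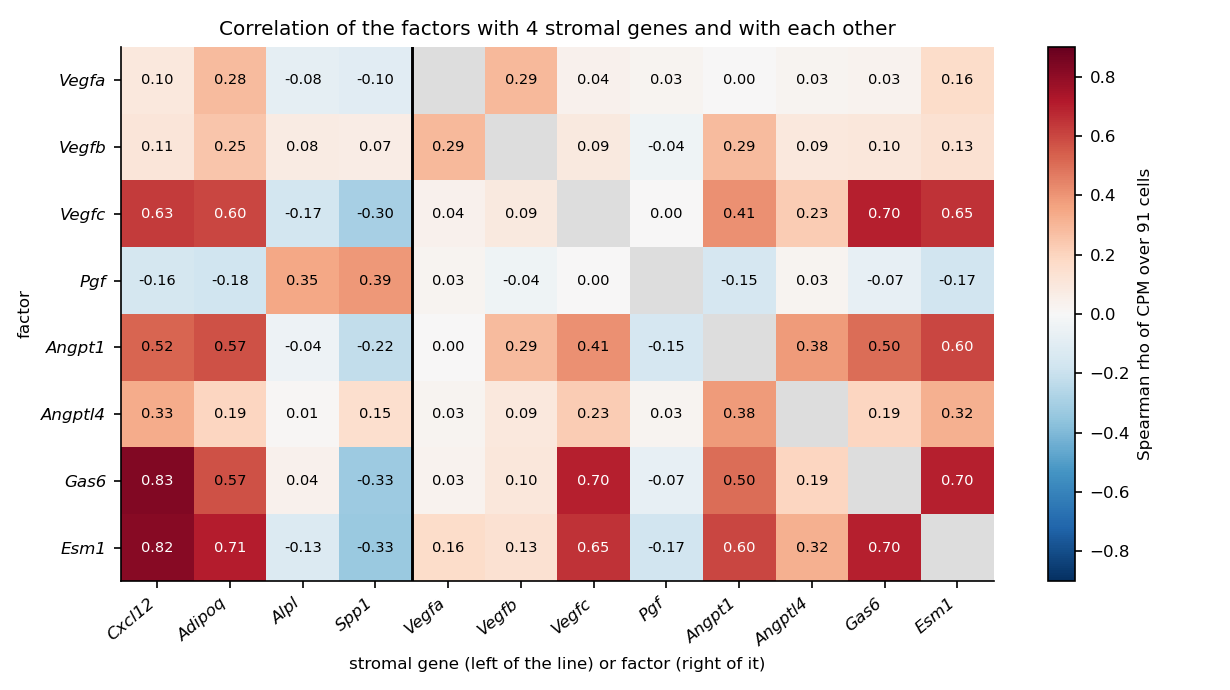
Spearman's rho of CPM over 91 cells between each factor (rows) and 4 stromal genes (left of the line) or the other factors (right of it), with red for positive and blue for negative values. Gas6, Esm1, Vegfc and Angpt1 are red with Cxcl12 and Adipoq, and Pgf is red with Alpl (0.35) and Spp1 (0.39).

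Against the bone-lineage genes, no factor reached a rho of 0.5 with Alpl, as 0.495% of all genes did, or with Spp1, as 0.518% did. Pgf came nearest, with 0.39 for Spp1 and 0.35 for Alpl; 1.30% of genes had a rho with Spp1 as high and 2.01% a rho with Alpl as high. Pgf was counted in 31 of 66 cells with Spp1 and in 5 of 25 cells without it. In the CD61+ gate it was counted in 6 of 17 cells with Adipoq and in 15 of 22 cells without it. The order was the reverse in the CD61- gate, at 13 of 36 cells with Adipoq and 1 of 4 cells without it. The rho of Pgf with Spp1 was 0.42 in CD61+ cells and 0.24 in CD61- cells, with 0.02 to 0.65 over plates. Among the 36 cells that had a count of Pgf, its rho was 0.10 with Spp1 and 0.21 with Alpl. Gas6 and Esm1 each had -0.33 with Spp1 and Vegfc -0.30.

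The negative values were larger in the CD61+ gate, where Spp1 summed to 67350 CPM, against 12267 CPM in the CD61- gate. In CD61+ cells rho with Spp1 was -0.68 for Gas6, -0.61 for Vegfc, -0.59 for Esm1 and -0.51 for Angpt1. In CD61- cells it was -0.01 for Gas6, 0.04 for Vegfc, -0.08 for Esm1 and -0.06 for Angpt1. The difference between the gates was not tested. Spp1 took up to 33.1% of a single cell's counts, which lowers every other CPM of that cell, so rho was also computed with Spp1 counts left out of the totals, a setting chosen after seeing the data. In CD61+ cells it was then -0.67 for Gas6, -0.61 for Vegfc, -0.59 for Esm1 and -0.51 for Angpt1, each within 0.02 of the value above. Over the 91 cells Vegfa had -0.08 with Alpl and -0.10 with Spp1, and its highest value among the 4 stromal genes was 0.28 with Adipoq. Vegfa and Adipoq had 0.38 in CD61+ cells and 0.15 in CD61- cells, with -0.01 to 0.66 over the plates.

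**Figure D4:**
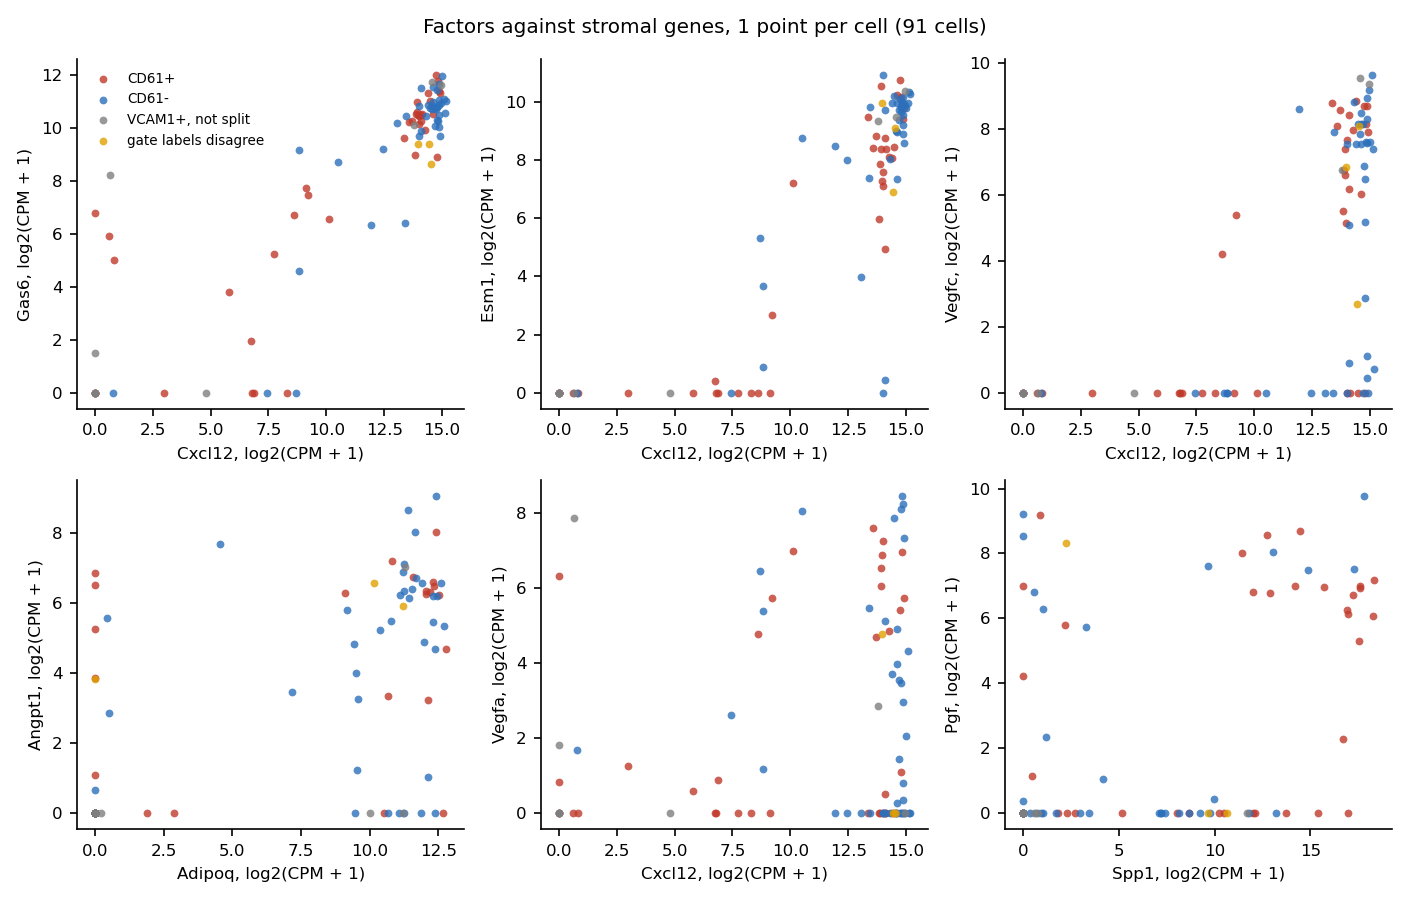
Each panel sets a factor against a stromal gene, both as log2(CPM + 1), with 1 point for each of 91 cells: red CD61+, blue CD61-, grey VCAM1+ not split, yellow the 3 cells whose labels disagree. Gas6 (rho 0.83) and Esm1 (0.82) are high in cells high in Cxcl12, while Vegfc (0.63) ranges from 0 to high values there. Angpt1 is set against Adipoq (0.57). Vegfa (0.10) is scattered against Cxcl12, and Pgf (0.39 with Spp1) is present in many cells with high Spp1.

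The factors were also counted together. A cell held counts of 5 of the 8 factors in the median, and 36 of 91 cells held at least 6. By gate the median was 5 (CD61+), 5.5 (CD61-) and 1 (unsplit VCAM1+). Vegfc, Esm1 and Gas6 were all counted in 53 of 91 cells, which is all but 1 of the 54 cells with Vegfc. That set was present in 48 of 59 cells with Adipoq and in 5 of 32 cells without it.

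Esm1 and Vegfc shared 53 cells, where unrelated shares would give 40.4, and Angpt1 and Esm1 shared 51, where 39.6 would be given. The rho of Gas6 with Vegfc was 0.70, of Gas6 with Esm1 0.70, of Esm1 with Vegfc 0.65 and of Angpt1 with Esm1 0.60. Vegfa and Pgf shared 21 cells, where 19.4 would be given, and Vegfb and Pgf 8, where 8.31 would be given. Vegfa and Vegfc had a rho of 0.04, Vegfb and Vegfc 0.09 and Vegfa and Vegfb 0.29, and 14 of 91 cells had counts of all 3.

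The factors were also read in clusters made without them, as a description. The 88 cells of known gate gave 6 clusters. Clusters 1 (29 cells: 4 CD61+, 23 CD61- and 2 unsplit) and 3 (10 cells: 6 CD61+ and 4 CD61-) had 12 and 11 of 12 CAR markers above the rest and are called CAR-like, although cell-cycle genes such as Mcm10 and Dscc1 led cluster 3. Cluster 2 (19 cells: 15 CD61+, 3 CD61- and 1 unsplit) had 12 of 12 osteolineage markers above the rest, with Dmp1 among its 10 leading genes, and is called osteolineage-like. Its 10 leading genes also held Col2a1 and Col11a2, collagen genes of cartilage, and 3 of the 4 chondrocyte markers in the table were above the rest. Cluster 4 (9 cells) had 12 of 12 endothelial and 9 of 10 fibroblast markers above the rest and stays unnamed, as do clusters 5 and 6.

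The osteolineage-like cluster had lower sums of Esm1, Vegfc, Angpt1 and Gas6 than both CAR-like clusters. Esm1 summed to 11.5 CPM there, against 863 and 778 CPM in CAR-like clusters 1 and 3. Vegfc summed to 4.09 CPM, against 264 and 334 CPM, and Angpt1 to 3.78 CPM, against 84.3 and 48.1 CPM. Gas6 was at 245 CPM, against 1821 and 2345 CPM. A single CD61- cell of the osteolineage-like cluster had 2900 CPM of Gas6. Without the highest cell of each cluster, Gas6 was at 77.3 CPM, against 1753 and 2198 CPM. Vegfc was counted in 3 of the 19 osteolineage-like cells, against 27 of 29 and 10 of 10 CAR-like cells.

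Pgf was counted in a larger share of cells in the osteolineage-like cluster than in the CAR-like ones, while the order of its sums depended on gate and on single cells. In the osteolineage-like cluster it was counted in 15 of 19 cells and summed to 125 CPM, against 10 of 29 cells with 76.6 CPM in cluster 1 and 4 of 10 cells with 52.1 CPM in cluster 3. Among CD61+ cells alone, Pgf summed to 83.2 CPM in the osteolineage-like cluster (15 cells), against 186 CPM in cluster 1 (4 cells) and 36.1 CPM in cluster 3 (6 cells). The highest sum among CD61+ cells, 214 CPM, was that of unnamed cluster 6 (6 cells). Over all 9 cells of cluster 6, Pgf was counted in 3 and summed to 107 CPM. That cluster had 19213 CPM of Cxcl12 and 2308 CPM of Alpl, the highest Alpl sum of the 6 clusters. A single CD61- cell of the osteolineage-like cluster held 881 CPM. Without the highest cell of each cluster, an alternative chosen after seeing the data, Pgf summed to 83.4 CPM there. In the same setting it summed to 54.2 CPM in cluster 1, 21.4 CPM in cluster 3 and 75.4 CPM in cluster 6. Angptl4 was counted in 18 of 19 osteolineage-like cells at 281 CPM, against 27 of 29 cells at 688 CPM in cluster 1 and 10 of 10 cells at 368 CPM in cluster 3. Vegfa was at 17.1 CPM in the osteolineage-like cluster, against 47.4 and 33.9 CPM in the CAR-like clusters. With 15 neighbours in the clustering in place of 10, the cluster with most osteolineage markers held 27 cells and 78.3 CPM of Pgf, below the 98.2 CPM of a 9-cell cluster. The 27-cell cluster also had 12 of 12 endothelial and 9 of 10 fibroblast markers above the rest, so it does not hold osteolineage-like cells alone. Its sums of Esm1 (15.3 CPM), Vegfc (2.57 CPM), Angpt1 (4.75 CPM) and Gas6 (227 CPM) were the lowest of any cluster in that setting.

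Cluster 4, with the endothelial and fibroblast markers, held few cells with Vegfc, Esm1, Angpt1 or Pgf. Vegfc and Pgf were counted in 0 of its 9 cells, and Esm1 and Angpt1 in 1 each. Gas6 was counted in 6 of the 9 cells but summed to only 101 CPM there. Angptl4 summed to 494 CPM and Vegfa to 54.9 CPM, the highest Vegfa sum of the 6 clusters, but their medians over the 9 cells were 4.09 CPM and 0.764 CPM. Without its highest Vegfa cell, an unsplit VCAM1+ cell, cluster 4 summed to 3.61 CPM of Vegfa. The 4 cells with Cdh5 had no count of Angpt1, Vegfb, Vegfc, Pgf or Esm1 either.

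**Figure D5:**
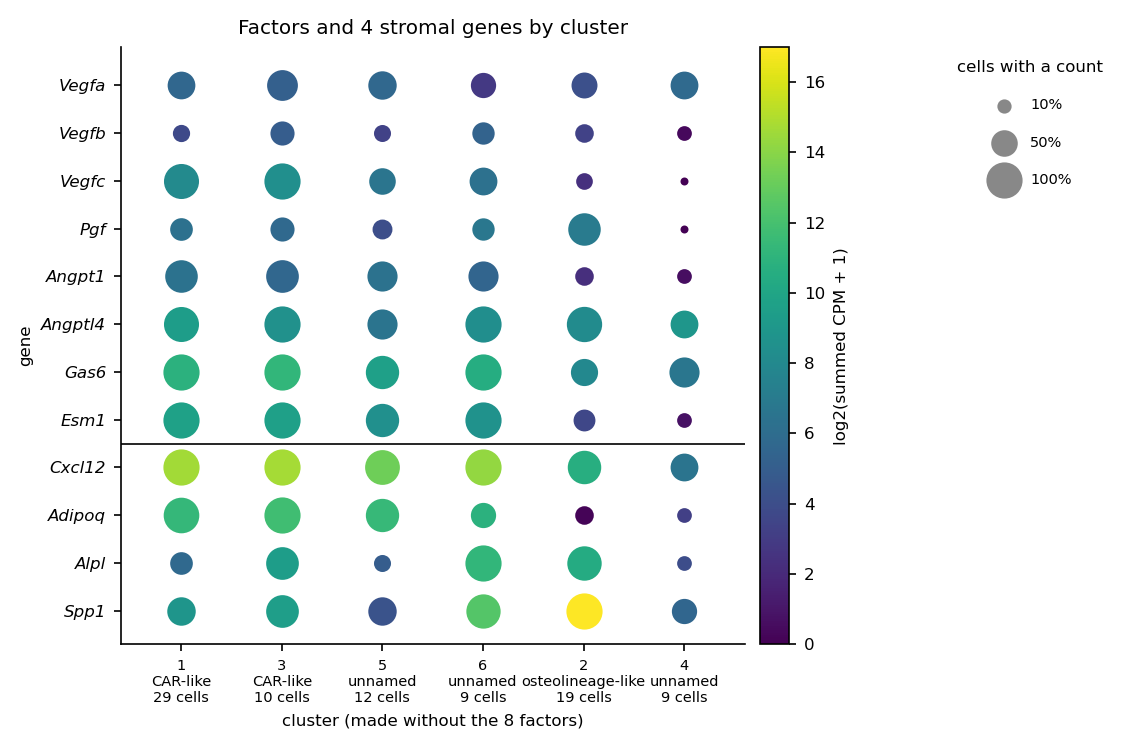
Summed level (colour, log2(summed CPM + 1)) and share of cells with a count (dot size) of the 8 factors and, below the line, the 4 stromal genes in 6 clusters of 88 cells made without the factors. The osteolineage-like cluster has small dots of low level for Vegfc, Angpt1 and Esm1 and its largest dots among the VEGF family for Pgf (15 of 19 cells).

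The genes most like each factor over the 91 cells were looked for among 7936 named genes counted in at least 25% of cells. For Esm1 they were Cxcl12 (rho 0.82), Lpl, the lipoprotein lipase gene (0.79), and the kininogen genes Kng2 (0.78) and Kng1 (0.77), closely related genes between which reads may be split. For Gas6 they were Fbln5, which encodes an elastic-fibre protein (0.87), Cxcl12 (0.83), Igfbp4, an IGF-binding protein gene (0.81), and Cxcl14, a chemokine gene (0.74). Vegfc was most like Gas6 (0.70), Lpl (0.68), Kng2 (0.68) and Dpep1, a membrane dipeptidase gene (0.65). Angpt1 was most like Serping1, the C1 inhibitor gene (0.62), Esm1 (0.60), Adipoq (0.57) and Lpl (0.57). Lpl thus stood among the 4 most similar genes of 3 factors.

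The other factors had weaker neighbours. Pgf was most like Unc5b, which encodes a netrin receptor (0.57), and then Pcnx3 (0.44) and Sh3bp1 (0.42). For Angptl4 they were Slc29a1, a nucleoside transporter gene (0.54), Rhot1 (0.46), Tspan4 (0.43) and Tnfsf11, the RANKL gene (0.41). For Vegfa none passed 0.37, the value of the Notch target Heyl, followed by Prmt2, Ifih1 and Prdm2 at 0.36 each. Pgf and Unc5b had a rho of 0.57 in CD61+ cells and 0.53 in CD61- cells.

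Sequence before the start sites was read for the 3 factors closest to Cxcl12 for which RefSeq gives a promoter, and for Vegfa as the VEGF gene that did not follow Cxcl12. Each line gives the 250 bases before the RefSeq start (GRCm38.p6), in gene orientation and 5′ to 3′. They cover chr13:113209409-113209658 (plus) for Esm1, chr8:13494536-13494785 (minus) for Gas6, chr8:54077282-54077531 (plus) for Vegfc and chr17:46032378-46032627 (minus) for Vegfa. For Esm1 and Vegfa a stretch just after the start was found in an annotated transcript of the gene. For Gas6 and Vegfc it was not, and their RefSeq starts lie upstream of the GENCODE gene positions given above. Capitals mark matches to GGGCGG, the GC box bound by SP1 and related factors.
Esm1: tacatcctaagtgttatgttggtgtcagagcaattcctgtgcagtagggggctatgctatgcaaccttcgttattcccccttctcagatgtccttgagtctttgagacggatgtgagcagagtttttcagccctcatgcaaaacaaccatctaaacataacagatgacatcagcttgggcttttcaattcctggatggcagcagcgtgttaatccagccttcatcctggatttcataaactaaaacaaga
Gas6: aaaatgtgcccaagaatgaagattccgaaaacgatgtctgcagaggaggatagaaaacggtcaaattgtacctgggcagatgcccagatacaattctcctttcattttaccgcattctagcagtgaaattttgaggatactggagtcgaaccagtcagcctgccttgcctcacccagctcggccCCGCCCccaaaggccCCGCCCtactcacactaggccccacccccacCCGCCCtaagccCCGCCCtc
Vegfc: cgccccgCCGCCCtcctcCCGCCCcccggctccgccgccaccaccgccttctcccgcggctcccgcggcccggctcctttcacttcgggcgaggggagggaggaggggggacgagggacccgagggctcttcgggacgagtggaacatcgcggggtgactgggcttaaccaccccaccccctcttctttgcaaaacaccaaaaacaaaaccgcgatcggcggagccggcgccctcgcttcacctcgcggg
Vegfa: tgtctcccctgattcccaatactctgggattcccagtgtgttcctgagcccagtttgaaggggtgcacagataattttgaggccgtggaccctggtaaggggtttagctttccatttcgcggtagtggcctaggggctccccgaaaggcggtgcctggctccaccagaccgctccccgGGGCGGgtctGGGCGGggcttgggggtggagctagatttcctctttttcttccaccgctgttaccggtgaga
Motifs were searched on both strands, namely GGGCGG, the hypoxia response core ACGTG, the EBF palindrome, the AP-1 site TGANTCA and the forkhead site TGTTTAC. In these 4 windows only GGGCGG was found, and it was added to the search after the other 4 motifs had given no match there. It had 4 matches for Gas6, 2 for Vegfc, 2 for Vegfa and 0 for Esm1, and no matches overlapped. GGGCGG is held by 32.7% of all 32851 RefSeq windows of this length, ACGTG by 16.6%, TGANTCA by 6.75%, TGTTTAC by 3.17% and the EBF palindrome by 0.779%. The G and C share was 44.0% for Esm1, 54.8% for Gas6, 71.6% for Vegfc and 59.2% for Vegfa, with a median of 52.4% over all windows. RefSeq gives a second start for Vegfa, whose window of 250 bases at chr17:46025164-46025413 (minus) is not printed here; it holds ACGTG at 211 bases and GGGCGG at 158 bases before that start. No motif of the 5 was held by all of the Esm1, Gas6 and Vegfc windows.

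Most receptor genes of these factors were counted in few of the sorted cells. Of 9 receptor genes in the table, 4 were counted in at least 25% of cells: the co-receptors Nrp1 (71 of 91 cells) and Nrp2 (75 cells), the GAS6 receptor Mertk (26 cells) and Flt1 (25 cells). The other GAS6 receptor gene in the table, Axl, was counted in 22 cells, with 65.5% of its counts in 1 cell. Tie1 was counted in 17 cells, Tek in 6, Kdr in 5 and Flt4 in 4. Nrp1 had 173 CPM in CD61+ cells and 266 CPM in CD61- cells and was lower in both CD61+ plates; Nrp2 had 118 CPM in CD61+ cells and 54.0 CPM in CD61- cells and was higher in both. Of 7 receptor genes tested, 1 was higher and 1 lower, beside 20.6% higher and 17.6% lower among all genes tested. Summed Flt1 was 15.6 CPM in CD61+ cells and 0.468 CPM in CD61- cells, but 1 cell held 52.1% of its counts.

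Among other angiogenic ligands, 6 of 17 tested genes were lower and 1 was higher in both CD61+ plates, with a median log2 ratio of -0.28; of all genes tested, 17.6% were lower and 20.6% higher. Ccn1, a matrix protein gene, had 869 CPM in CD61+ cells and 3498 CPM in CD61- cells. Fgf7 had 225 CPM in CD61+ cells and 332 CPM in CD61- cells, and Mdk, the midkine gene, 198 CPM in CD61+ cells and 365 CPM in CD61- cells; all 3 were lower in both CD61+ plates. Angpt4 had 241 CPM in CD61+ cells and 185 CPM in CD61- cells, with overlapping plates.

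Of 11 tested genes for secreted inhibitors of vessel growth, 4 were higher and 2 lower, with a median log2 ratio of 0.44, beside 20.6% and 17.6% of all genes tested. Sparc, a matrix glycoprotein gene, had 9748 CPM in CD61+ cells and 5352 CPM in CD61- cells and was higher in both CD61+ plates. Serpinf1, the gene of pigment epithelium-derived factor, had 455 CPM in CD61+ cells and 335 CPM in CD61- cells, and Timp2, a metalloproteinase inhibitor gene, 394 CPM in CD61+ cells and 362 CPM in CD61- cells, both with overlapping plates. Cxcl10, an interferon-induced chemokine gene, was lower in both CD61+ plates, but it was counted in 6 of 91 cells and 1 cell held 85.6% of its counts.

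Hypoxia genes, read because VEGF-A is a classical target of hypoxia-inducible factors, showed 4 of 16 tested higher and 3 lower, with a median log2 ratio of 0.15, beside 20.6% higher and 17.6% lower over all genes tested. Epas1, which encodes HIF-2 alpha, had 58.6 CPM in CD61+ cells and 91.9 CPM in CD61- cells and was lower in both CD61+ plates. Ldha, for lactate dehydrogenase, had 640 CPM in CD61+ cells and 534 CPM in CD61- cells and was higher in both. Hif1a had 118 CPM in CD61+ cells and 88.8 CPM in CD61- cells, and Higd1a 189 CPM in CD61+ cells and 130 CPM in CD61- cells, both with overlapping plates.

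Index-sort intensities were compared with the factors in the same cells. CD200 intensity had a rho of -0.39 with Esm1, -0.36 with Vegfc and -0.34 with Angpt1 over 91 cells, and of 0.33 with Pgf. Inside the CD61+ gate the values were -0.68 for Vegfc, -0.59 for Esm1, -0.59 for Gas6, -0.54 for Angpt1 and 0.36 for Pgf. Inside the CD61- gate they were -0.02 for Vegfc, -0.24 for Esm1, 0.03 for Gas6, -0.16 for Angpt1 and 0.15 for Pgf. CD61 intensity within the CD61+ gate had a rho of -0.49 with Vegfc, -0.40 with Esm1 and -0.34 with Gas6. VCAM1 intensity had values between -0.01 (Vegfa) and 0.15 (Angpt1) over the 91 cells. The difference between the gates was not tested.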

How the data were processed

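The authors deposited whole-number estimated counts per gene and cell and, per the labels, the index-sort fluorescence intensity of each cell. Per the submitters' processing notes kallisto 0.43.0, R 3.5.1 and the mm10 build were used; the annotation release was not given in the sources used here. From the counts, CPM per cell and summed CPM per gate and plate were computed with scipy 1.17.1, pandas 2.3.3 and numpy 2.4.6 under Python 3.11.15. A gene was called higher or lower when the plates of one gate all lay above those of the other. Genes needed 10 counts summed over the plates and 5 cells with a count, and any gate or plate sum under 3 counts was raised to 3. Intervals are 95% (exact Poisson, Clopper-Pearson, or the exact binomial split of 2 sums). PCR reads without molecular identifiers are not independent molecules, so intervals cover counting error only. Clusters came from 88 cells, 2000 variable genes without the 8 factors, 15 components, 10 neighbours and Leiden resolution 1 (scanpy 1.11.5, igraph 0.11.9); no doublet caller was run. Alternatives used TMM (edgeR 4.0.16), size factors (DESeq2 1.42.0), thinning to 1000000 counts and others given below. The plate call was tested on simulated data in which cells were drawn independently and plates had no effect. That test therefore cannot show how often plate effects alone give a call. Gene positions and lengths came from GENCODE vM21 and promoter windows from RefSeq, which holds 6 of the 8 factors. Named were the 8 factors, the 4 genes most like each factor counted in at least 25% of cells, all receptors, and up to 4 genes of each other list by CPM; 1 gene that this rule names is not reported here. Members and lists were chosen with earlier results of these data known. A further 44 metadata columns were not used.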

Additional observations from a re-analysis of the deposited data

Results flagged for a closer look

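In the 9 VCAM1+ cells that were not split by CD61, 3 factors had 1 cell far above the other 8. Angpt1 was at 128 CPM in 1 cell and at 0 in the others. Angptl4 was at 1997 CPM in 1 cell, with the next cell at 284 CPM and a median of 77.0 CPM. Vegfa was at 233 CPM in 1 cell, with the next cell at 6.30 CPM and a median of 0 CPM. The gap to the nearest cell was 100% of the range for Angpt1, 85.8% for Angptl4 and 97.3% for Vegfa, above the critical share of 49.3% for 9 cells. That share, which chance passes in about 1 in 20 groups, assumes normally distributed values, which these CPM with many cells at 0 are not. With 1 cell above 0, as for Angpt1, the gap is 100% of the range by construction.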

How the results depend on the processing

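No paired analysis was possible because no animal is named and the results come from no test. The count of 4 factors lower and 0 higher on both CD61+ plates was again 4 and 0 with TMM factors, DESeq2 size factors, either placing of the 3 cells whose labels disagree, and Spp1 left out of totals, for the same 4 factors. With mean CPM over cells it was 4 and 0 as well, but Angpt1 overlapped and Angptl4 was lower. It was 5 and 0 with cells thinned to 1000000 counts and without the 10 cells with endothelial or hematopoietic markers, and 3 to 5 and 0 when single cells were left out in turn. In cells with a count of Adipoq it was 0 and 0, and the log2 ratios of Vegfc (0.086) and Gas6 (0.20) changed sign there; the cause was not tested. With plate sums compared as counted, not raised to 3, the factors again gave 4 and 0, and 20.0% of all tested genes were higher and 17.8% lower, against 20.6% and 17.6%. Without the filter on low counts, 25.8% of 16502 genes were higher and 15.6% lower. The settings on Adipoq, Spp1 totals, marker-bearing cells, unraised plate sums counts without single cells, rho without Spp1 in totals and clusters without their highest cell were chosen after seeing the data. The rho values under alternatives cover 32 pairs of a factor and a stromal gene. In size, 318 of these values stayed on their side of 0.5, 21 went below it and 13 passed it. Over all cells only Gas6, Esm1, Vegfc and Angpt1 with Cxcl12 and with Adipoq had reached 0.5. All 21 values that went below belong to these pairs, while most of the 318 come from pairs that had not reached it. Leaving out 1 plate turned the sign of the log2 ratio for Vegfa (0.89 without CD61- plate 1), Vegfb (-0.65 and -0.28 without either plate 2) and Pgf (-0.33 and -0.51 without either plate 1). Small counts were most frequent for Vegfa, with 1 to 3 counts in 12 of the 49 cells that had it. Whether depth limits it was not tested. With 1 sample per gate, no difference between gates can be set against the spread between animals.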
